A study of Mus musculus with 64 samples.

Results

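Peaks of SOX2, β-catenin, LEF1, TCF7L1 and TCF7L2 were collected around 8 genes of the bone morphogenetic protein (BMP) pathway: Id1, Id2, Id3, Bmp4, Smad7, Msx1, Msx2 and Bambi, of 21884 protein-coding genes in GENCODE M21. A peak belonged to a gene when its summit lay in the gene body or within 30 kb on either side. The 60 peak lists held 12175672 peaks on the main chromosomes, of which 4307 lay at the 8 loci, and 805 of these were among the 20000 strongest of their list by the deposited fold, the ratio of signal to local background that MACS computes. Summits of the 20000 strongest peaks of all libraries were gathered into 542553 sites of 250 bp either side of a centre, of which 186 lay at the 8 loci. At 39 of these 186, at least 2 of 3 libraries of some target and condition had a peak, and these are called recurrent sites.

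The libraries came from chromatin immunoprecipitation of 4 cell states, with 3 biological replicates per target and state. All cells were of the strain HM1 (129) and derived from the XY HM1 TetON mouse embryonic stem cell line, which served as the wild type. Naive ESCs were wild-type cells in 2i medium, which contained CHIR99021 at 3 µM and PD0325901 at 500 nM. CEpiLCs, a model of the caudal epiblast, were wild-type cells kept in bFGF at 10 ng/ml and LGK974 at 5 µM, an inhibitor of WNT secretion, to which CHIR99021 was added for the last day. SOX2-ON and SOX2-OFF cells carried the genotype Sox2-/- and a doxycycline-dependent Sox2 transgene at the HPRT locus. They were differentiated as the CEpiLCs were, and doxycycline (1 µg/ml before differentiation) was either maintained or withdrawn. The label gives 72 h for all 4 states. The SOX2-TetON line was a single edited line, so its difference from the wild-type line cannot be told apart from its other properties. Peak lists hold no transcript levels, so the cell states could not be checked against marker genes, nor could a peak be tied to the expression of the gene it lies near.

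BMP ligands bind type I and type II receptor kinases, which phosphorylate SMAD1, SMAD5 and SMAD9. These join SMAD4, enter the nucleus and bind GC-rich boxes, and the Id genes are their best known direct targets. ID proteins lack a DNA-binding domain and hold basic helix-loop-helix factors inactive. BMP4 with LIF supports the self-renewal of mouse embryonic stem cells through Id genes, and in the embryo BMP and WNT signals overlap at the primitive streak, where Msx genes, which encode homeobox repressors, respond to both. SMAD7 and BAMBI, an intracellular inhibitor and a membrane pseudoreceptor, are feedback inhibitors of the pathway.

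The lists differed in length from 1626 to 991719 peaks, with a median of 106232. Fewer than 20000 peaks were held by 10 lists: 6 of CEpiLCs, 3 of SOX2-OFF, 1 of SOX2-ON and 0 of naive ESCs. A short list keeps weak peaks: the lowest fold that was used went down to 1.27 in a list under 20000 peaks, and ranged from 3.08 to 9.89 in the lists cut at 20000. Values are therefore given as the deposited fold together with the rank of the peak in its own list, counted from 1 at the highest fold. The read depth of the libraries is unknown, so no counting interval could be given. A library counted as occupying a site when a summit among its 20000 strongest peaks (a list peak) lay within 250 bp of the centre. A site was called between CEpiLCs and naive ESCs, or between SOX2-ON and SOX2-OFF, when a target occupied it in 3 of 3 libraries of one state and 0 of 3 of the other. A high-SOX2 site was occupied in at least 5 of the 6 libraries of naive ESCs and SOX2-ON and at most 1 of the 6 of CEpiLCs and SOX2-OFF, and a low-SOX2 site the reverse. Naive ESCs and CEpiLCs also differ in medium and cell state. Within the wild-type line the level of SOX2 therefore cannot be told apart from these. Adjusted p-values are Benjamini-Hochberg values over all sites of the target genome-wide.

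**Figure D1:**
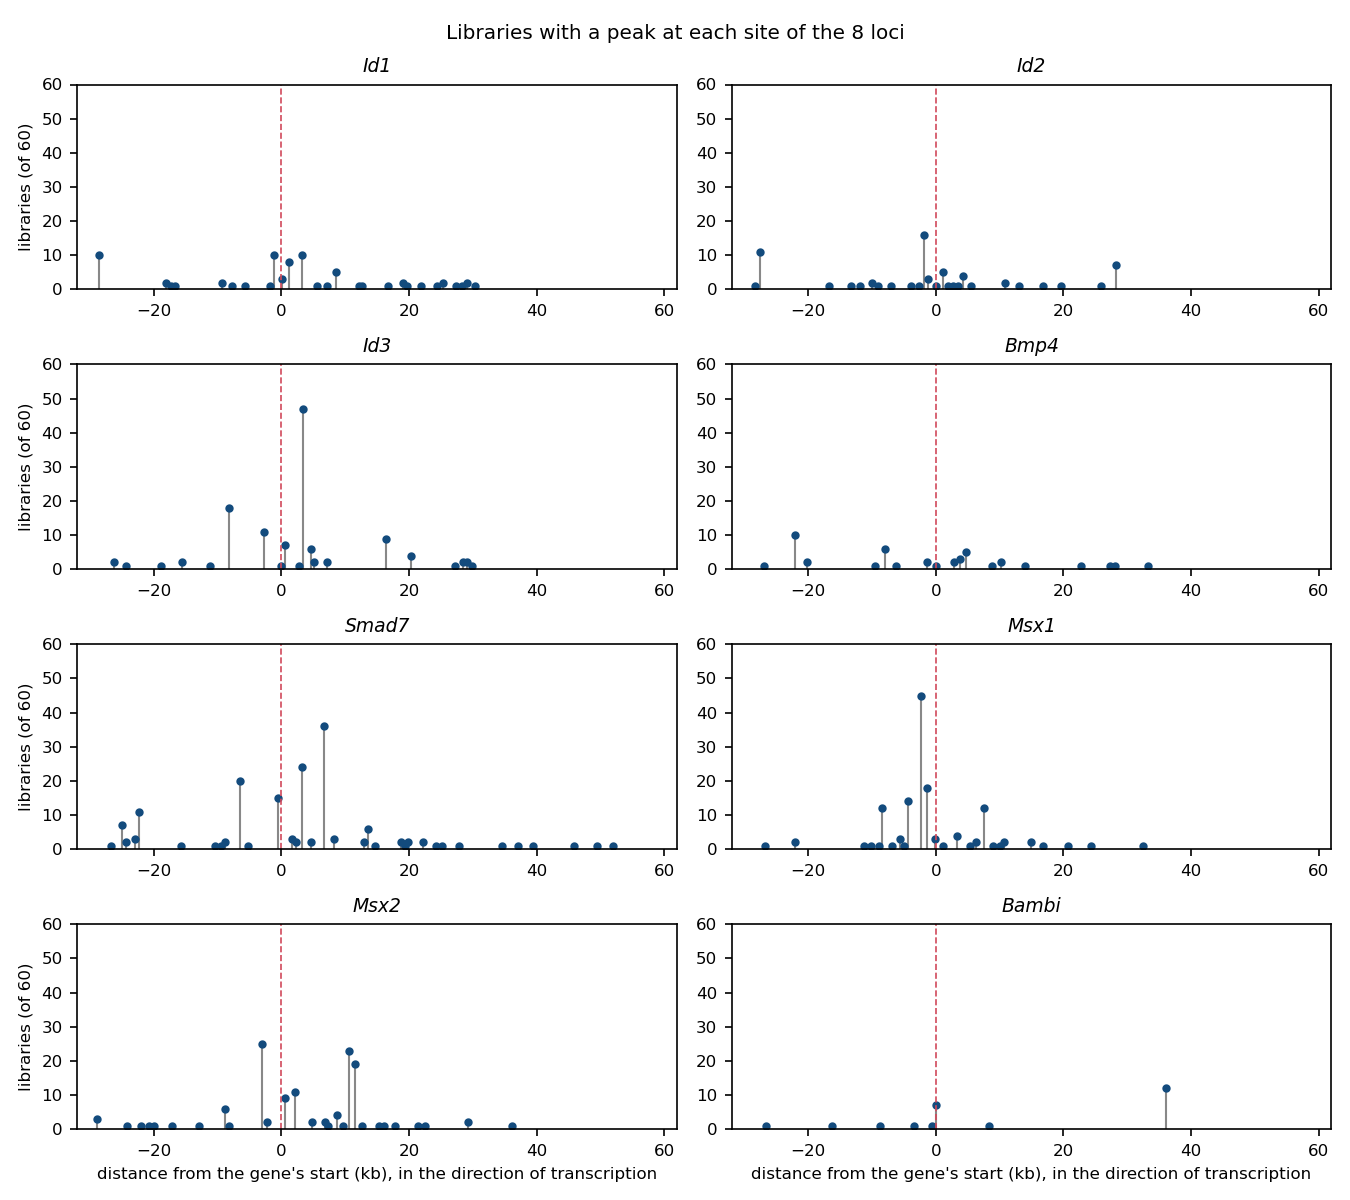
For each of the 8 genes, points give the number of libraries (vertical axis, of 60) with a peak among their 20000 strongest at each site, against the distance of the site from the gene's start in kb (horizontal axis, positive in the direction of transcription, dashed line at the start). Id3, Msx1 and Smad7 each have a site of 47, 45 and 36 libraries, whereas no site of Id1 or Bmp4 exceeds 10 libraries.

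The loci differed in how often they were occupied. Among the 20000 strongest peaks, the Smad7 locus held a peak in 58 of 60 libraries, Msx2 in 57, Id3 in 53, Msx1 in 52, Id1 in 40, Id2 in 35, Bmp4 in 28 and Bambi in 21. The loci span from 61160 bp at Id1 to 88407 bp at Smad7, and these counts are not corrected for length. Id1 shares its window with H13 and Cox4i2, Id3 with E2f2, and Bmp4 with Gm15217. The other loci hold no other coding gene.

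A locus was counted as kept when at least 2 of 3 libraries of each of the 4 states had a peak in it. For SOX2 this held for 5 of 8 members (Id1, Id2, Id3, Smad7 and Msx2), against 29.8% of all coding genes. For β-catenin it held for 5 of 8 (Id1, Id3, Smad7, Msx1 and Msx2), against 20.8%. TCF7L1 was kept at 4 members (Id3, Smad7, Msx1 and Msx2), against 20.6%, TCF7L2 at 3 (Smad7, Msx1 and Msx2), against 27.5%, and LEF1 at 2 (Smad7 and Msx2), against 17.1%. Bmp4 and Bambi were kept for no target.

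The 201 bases around the centres of the sites found in most libraries, and of some sites called between states, are shown here because the results below turn on them. They are the plus strand of GRCm38 (the coordinates of mm10) from RefSeq. Capitals mark the searched motifs: CATTGT or CTTTGT for SOX factors, CTTTGAT or CTTTGAA for TCF/LEF factors, GGCGCC for the GC box of SMAD1 and SMAD5, and, at the Id1 and Id2 sites, the GTCT that follows a GC box after 5 bases on the same strand, the spacing of the BMP response element.
Id1, 3240 bp downstream of the start, chr2:152739391-152739591: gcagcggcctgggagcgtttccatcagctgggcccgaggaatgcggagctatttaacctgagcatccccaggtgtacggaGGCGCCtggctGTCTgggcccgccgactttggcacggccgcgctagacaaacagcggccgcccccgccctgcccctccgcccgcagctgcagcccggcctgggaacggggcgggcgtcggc
Id2, 1786 bp upstream, chr12:25098826-25099026: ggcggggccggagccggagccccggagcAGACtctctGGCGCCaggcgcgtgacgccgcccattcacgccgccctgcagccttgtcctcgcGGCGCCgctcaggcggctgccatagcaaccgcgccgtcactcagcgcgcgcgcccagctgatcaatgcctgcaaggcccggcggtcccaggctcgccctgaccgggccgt
Id2, 27630 bp upstream, chr12:25124670-25124870: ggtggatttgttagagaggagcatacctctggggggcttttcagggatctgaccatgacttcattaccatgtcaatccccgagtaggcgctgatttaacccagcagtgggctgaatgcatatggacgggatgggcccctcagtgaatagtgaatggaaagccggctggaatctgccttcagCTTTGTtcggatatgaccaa
Id3, 3447 bp downstream, chr4:136146844-136147044: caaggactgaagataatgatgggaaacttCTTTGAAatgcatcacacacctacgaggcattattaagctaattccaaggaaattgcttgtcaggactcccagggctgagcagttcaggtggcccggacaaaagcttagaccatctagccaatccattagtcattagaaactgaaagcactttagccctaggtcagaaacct
Bmp4, 22011 bp upstream, chr14:46412580-46412780: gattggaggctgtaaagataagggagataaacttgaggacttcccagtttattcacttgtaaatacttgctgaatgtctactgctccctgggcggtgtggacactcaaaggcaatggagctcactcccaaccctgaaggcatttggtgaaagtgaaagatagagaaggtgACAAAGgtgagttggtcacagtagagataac
Msx1, 2348 bp upstream, chr5:37826831-37827031: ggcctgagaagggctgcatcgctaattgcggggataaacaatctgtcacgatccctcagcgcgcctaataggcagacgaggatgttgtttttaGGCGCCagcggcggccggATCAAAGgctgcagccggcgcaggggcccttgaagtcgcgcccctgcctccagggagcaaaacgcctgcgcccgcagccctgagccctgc
Msx2, 3027 bp upstream, chr13:53476001-53476201: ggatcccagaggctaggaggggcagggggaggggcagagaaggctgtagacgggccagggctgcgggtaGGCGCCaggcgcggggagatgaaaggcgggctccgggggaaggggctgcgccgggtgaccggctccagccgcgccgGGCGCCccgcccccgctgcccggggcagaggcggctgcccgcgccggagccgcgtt
Msx2, 11540 bp downstream, chr13:53461434-53461634: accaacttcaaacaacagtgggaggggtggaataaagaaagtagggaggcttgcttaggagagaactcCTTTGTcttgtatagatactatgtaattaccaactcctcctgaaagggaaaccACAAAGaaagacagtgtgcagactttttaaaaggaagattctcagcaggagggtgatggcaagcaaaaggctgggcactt
Msx2, 10588 bp downstream, chr13:53462386-53462586: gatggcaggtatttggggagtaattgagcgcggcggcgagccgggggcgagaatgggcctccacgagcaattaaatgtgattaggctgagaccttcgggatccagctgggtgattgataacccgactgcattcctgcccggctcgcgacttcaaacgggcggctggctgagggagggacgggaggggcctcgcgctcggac

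Distances here and below are from the annotated start of the gene to the centre of the site, in the direction of transcription. Of the 39 recurrent sites, 19 lay within 5 kb of the start of their gene. By annotation 29 were intergenic, 4 were in introns, 3 in coding exons, 2 in UTRs and 1 in an exon of a non-coding transcript (Gm20544, next to the Smad7 start). The nearest coding start was the member's own at all but 3 of them, the exceptions being 2 distal Id3 sites nearer to E2f2 and 1 distal Id1 site in a UTR of H13, nearer to Mcts2.

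**Figure D2:**
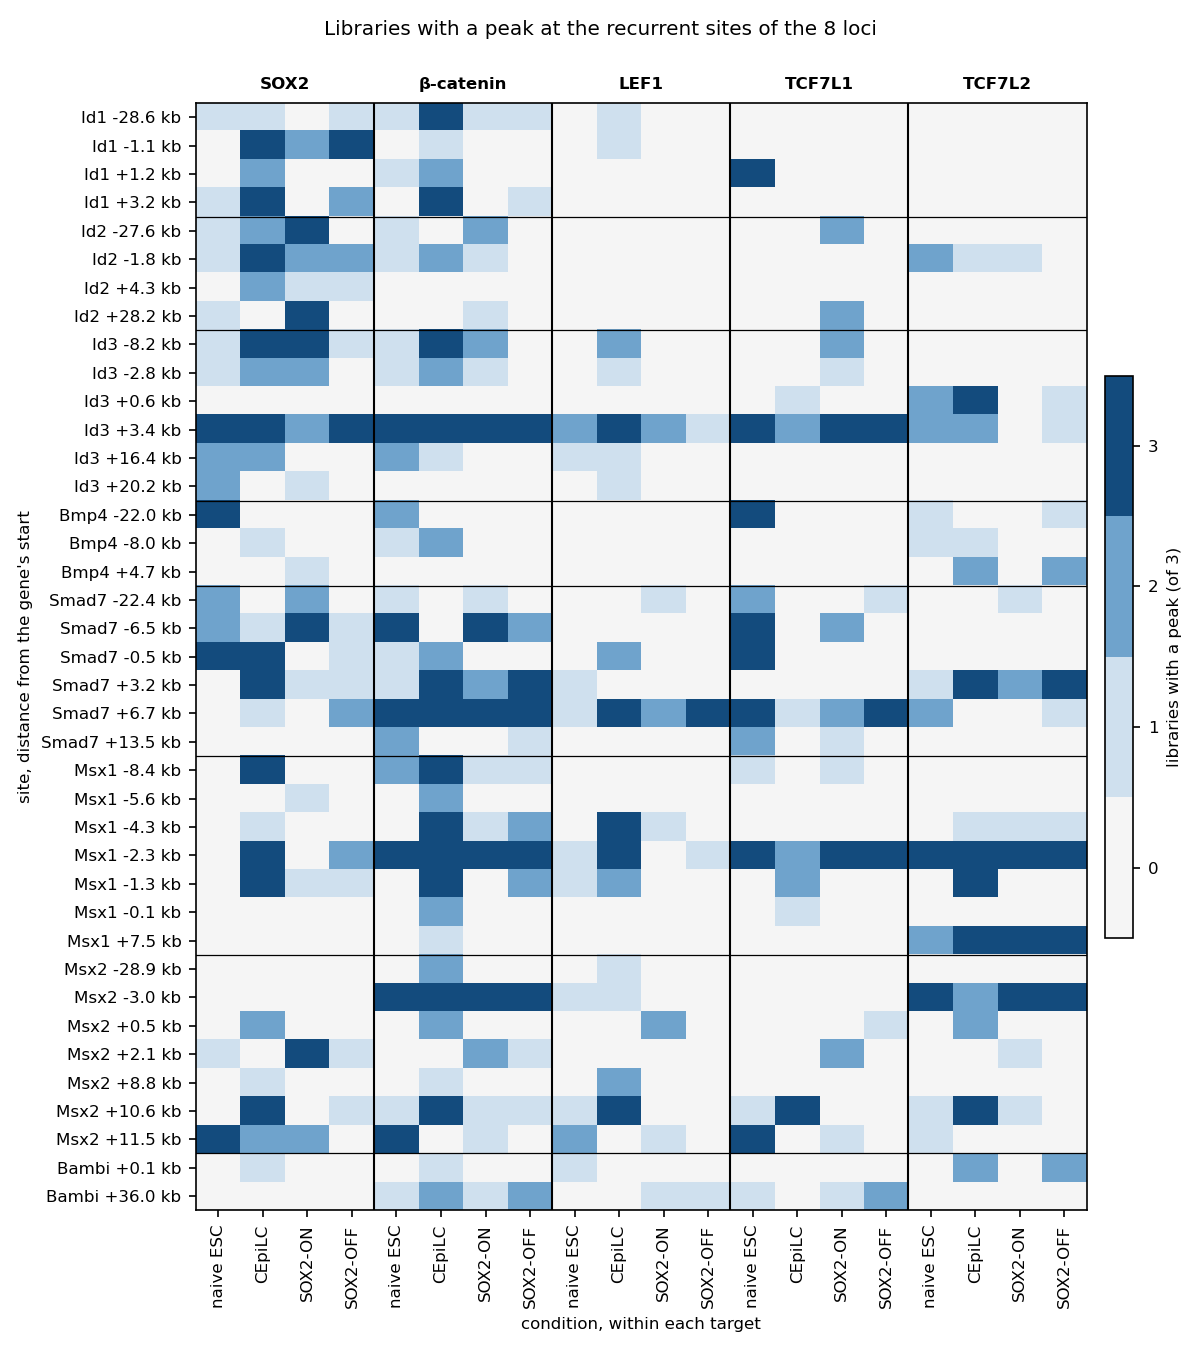
Each row is 1 of the 39 recurrent sites, named by gene and distance from its start in kb, and each column is 1 target in 1 cell state. The shade gives the number of libraries (0 to 3) with a peak among their 20000 strongest, and dark rows that run through all states, as at the Id3 site 3447 bp downstream, are sites found in every state.

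Id3 (ENSMUSG00000007872.3, chr4:136143497-136145755) carried the most widely occupied site of the 8 loci. It lay 3447 bp downstream of the start and past the end of the gene (chr4:136146694-136147194, intergenic), and 47 of 60 libraries had a peak there among their 20000 strongest. β-catenin had a peak in 3 of 3 libraries of every state. Its folds were 89.2, 49.5 and 103 in naive ESCs (ranks 60, 79 and 44), 31.3, 34.6 and 57.3 in SOX2-ON, 26.4, 5.98 and 33.3 in SOX2-OFF and 15.5, 15.1 and 9.37 in CEpiLCs (ranks 1591, 1417 and 2232). Naive ESCs did not overlap CEpiLCs or SOX2-OFF, while SOX2-ON and SOX2-OFF overlapped. The SOX2-OFF library at 5.98 was 1 of 5 lists under 5000 peaks. Across the 12 libraries the geometric mean of the fold was 3.67 times higher in high-SOX2 cells (naive ESCs and SOX2-ON) than in low-SOX2 cells (CEpiLCs and SOX2-OFF), with an exact two-sided permutation p = 0.01 within cell lines. The Benjamini-Hochberg adjusted p of this exact test over all 1120 β-catenin sites with a peak in all 12 full lists was 0.0663, so the difference did not pass the threshold.

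TCF7L1, which acts mainly as a repressor in embryonic stem cells, reached the highest fold of the 8 loci at the same Id3 site. They were 114, 88.2 and 201 in naive ESCs (ranks 76, 91 and 83), 7.26, 44.2 and 94.4 in SOX2-ON, and 22.9, 25.5 and 23.8 in SOX2-OFF. In CEpiLCs 2 libraries had folds of 18.7 and 7.71, and the library with the shortest list of all (1626 peaks) had no peak. The naive ESC and SOX2-ON libraries overlapped. SOX2 had folds of 37.0, 46.1 and 49.4 in naive ESCs (ranks 198, 111 and 66), all above the 9 other SOX2 libraries, which ranged from 5.50 to 28.1. The SOX2 fold of high-SOX2 cells was 1.23 times that of low-SOX2 cells (exact permutation p = 0.545, adjusted p = 0.691), and SOX2-ON (14.9, 5.50 and 12.9) overlapped SOX2-OFF. TCF7L2 was at 9 and 9.55 in 2 naive ESC libraries and had no list peak in SOX2-ON. It also had list peaks at 4.02 and 7.07 in 2 CEpiLC libraries and at 4.69 in 1 SOX2-OFF library. LEF1 was at 22.9 and 11.7 in 2 naive ESC libraries and at 7.56, 6.41 and 5.23 in CEpiLCs. Further LEF1 list peaks were at 8.66 and 11.6 in 2 SOX2-ON libraries and at 8.43 in 1 SOX2-OFF library. The window holds 1 TCF motif, from 71 to 65 bases before the centre, and no SOX motif.

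**Figure D3:**
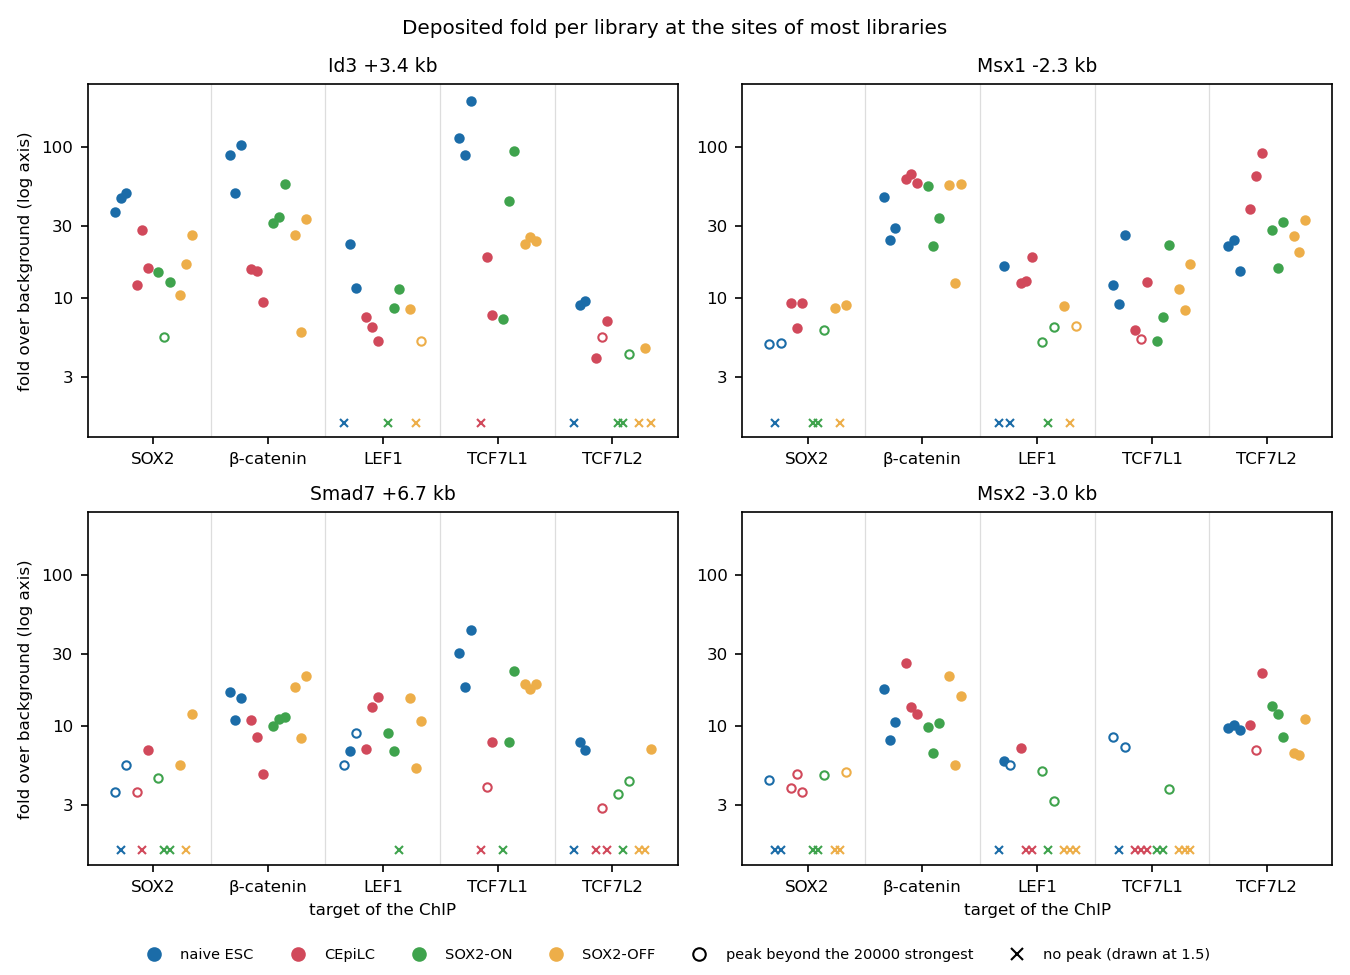
Deposited fold over local background (vertical, log axis) per library and target (horizontal) at the sites occupied by most libraries at Id3, Msx1, Smad7 and Msx2, coloured by cell state; filled points are among the 20000 strongest of the list, open points are weaker, and crosses mark libraries with no peak. At Id3 the naive ESC folds of β-catenin (49.5 to 103) lie above those of CEpiLCs (9.37 to 15.5), whereas at Msx1 the TCF7L2 folds of CEpiLCs (39.2 to 91.5) lie above those of naive ESCs (15.2 to 24.2).

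The other recurrent Id3 sites were weaker. At 8211 bp upstream (18 libraries), SOX2 had a peak in 3 of 3 CEpiLC libraries (9.59, 6.34 and 5.38) and 3 of 3 SOX2-ON libraries (9.78, 6.00 and 14.1), against 1 of 3 in both naive ESCs and SOX2-OFF. There β-catenin was found in 3 of 3 CEpiLC libraries, 2 of 3 SOX2-ON libraries (8.55 and 12.4) and 1 of 3 naive ESC libraries (6.93). At 556 bp downstream, in a coding exon, TCF7L2 was found in 3 of 3 CEpiLC libraries (6.31, 15.8 and 8.37) and in 2 of 3 of naive ESCs (7.92 and 8.19), and SOX2 in 0 libraries. None of the Id3 sites was called between states.

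Id1 (ENSMUSG00000042745.9, chr2:152736251-152737410), the member whose promoter is the classical BMP reporter, was occupied close to the gene and mostly by SOX2 and β-catenin. At 1101 bp upstream (chr2:152734900-152735400, intergenic), SOX2 folds were 7.92, 13.9 and 12.1 in CEpiLCs (ranks 5129, 1547 and 2822), 6.73, 9.55 and 9.59 in SOX2-OFF and 11.7, 6.40 and 3.70 in SOX2-ON. In naive ESCs they were 3.53 and 5.00 (ranks 696987 and 44048) and the third library had no peak. The site was therefore occupied by SOX2 in 3 of 3 CEpiLC and 0 of 3 naive ESC libraries. Its SOX2 occupancy in 6 of 6 low-SOX2 against 2 of 6 high-SOX2 libraries had an exact permutation p = 0.05 and an adjusted p of 0.223.

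At 3240 bp downstream of Id1 (chr2:152739241-152739741, intergenic), SOX2 and β-catenin were both in 3 of 3 CEpiLC libraries. SOX2 folds were 7.03, 9.50 and 15.0 in CEpiLCs and 4.59, 8.01 and 11.3 in SOX2-OFF. In SOX2-ON they were 3.77 and 5.29 with 1 library without a peak, and in naive ESCs 12.7 and 4.09 with 1 library without a peak. β-catenin was at 10.9, 6.34 and 12.2 in CEpiLCs (ranks 2822, 5602 and 1476), while 1 of 3 naive ESC libraries had a peak at 3.88 (rank 41300). SOX2 was found in 5 of 6 low-SOX2 and 1 of 6 high-SOX2 libraries, which met the rule for a low-SOX2 site (exact permutation p = 0.08, adjusted p = 0.28). The TCF/LEF factors had no list peak at this site.

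At 1239 bp downstream of Id1, just past its end, TCF7L1 was found in 3 of 3 naive ESC libraries, with folds of 9.37, 6.49 and 15.6, and in 0 of 3 CEpiLC libraries. The CEpiLC libraries of TCF7L1 include the shortest list of all (1626 peaks). With all deposited peaks the difference stayed. It fell to 0 libraries with the 10000 strongest peaks or with lists of equal length. SOX2 there was at 5.00 and 6.02 in 2 of 3 CEpiLC libraries, and at 8.15 and 4.91 in 2 of 3 naive ESC libraries, where both peaks lay beyond the 20000 strongest. β-catenin was in 2 of 3 CEpiLC libraries (5.69 and 3.37) and 1 of 3 naive ESC libraries (6.84).

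Id2 (ENSMUSG00000020644.9, chr12:25093799-25097140) had its most shared site 1786 bp upstream (chr12:25098676-25099176, intergenic), in 16 libraries. SOX2 was at 7.14, 8.82 and 10.7 in CEpiLCs, at 4.64, 12.1 and 7.44 in SOX2-OFF, at 8.88 and 6.26 in SOX2-ON with 1 library without a peak, and at 15.5 in 1 of 3 naive ESC libraries. TCF7L2 was found in 2 of 3 naive ESC libraries (4.56 and 6.00), 1 of 3 CEpiLC libraries (11.2) and 1 of 3 SOX2-ON libraries (5.50). No difference between states was called, and the states overlapped.

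Far from the Id2 gene, SOX2 peaks were called in SOX2-ON against SOX2-OFF. At 27630 bp upstream (chr12:25124520-25125020, intergenic), SOX2 folds were 32.1, 17.7 and 21.6 in SOX2-ON (ranks 186, 1377 and 1294), and none of the SOX2-OFF libraries had a peak in its full list. β-catenin was at 14.0, 9.46 and 5.18 (the last at rank 103959) in SOX2-ON and had no peak in SOX2-OFF, and TCF7L1 was at 5.03 and 13.8 in 2 of 3 SOX2-ON libraries. SOX2 was also found there in 2 of 3 CEpiLC libraries (4.80 and 8.87) and 1 of 3 naive ESC libraries (10.7), and no difference between high and low SOX2 was called (4 of 6 against 2 of 6, exact permutation p = 0.59, adjusted p = 0.91). At 28200 bp downstream (chr12:25068690-25069190, intergenic), SOX2 folds were 15.1, 20.2 and 13.0 in SOX2-ON, and neither CEpiLC nor SOX2-OFF libraries had a peak in the full lists. There 1 of 3 naive ESC libraries had a peak (6.90), and TCF7L1 was found in 2 of 3 SOX2-ON libraries (5.05 and 11.9). β-catenin was at 6.05, 5.91 and 4.56 in SOX2-ON (ranks 36626, 7742 and 165403), of which only 5.91 was a list peak. No library of the other states had a β-catenin peak there in its full list. Each of these distal windows holds 1 SOX motif. They were the only member sites called between SOX2-ON and SOX2-OFF, and both lie beyond 10 kb from the gene.

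Bmp4 (ENSMUSG00000021835.15, chr14:46383520-46390669), the ligand among the members, had 3 recurrent sites, and the most shared lay 22011 bp upstream (chr14:46412430-46412930, intergenic). In naive ESCs SOX2 was at 10.7, 8.32 and 9.89 and TCF7L1 at 11.7, 9.26 and 16.5, and β-catenin was at 16.6 and 10.6 in 2 of 3 libraries. No CEpiLC library of any target had a peak there in its full list, and no SOX2-ON library had one among its 20000 strongest. The site was thus called only in naive ESCs, against CEpiLCs, for SOX2 and TCF7L1. With all deposited peaks both calls stayed. With lists of equal length the TCF7L1 difference fell to 0 libraries, and with the 10000 strongest peaks the SOX2 call was lost. Ranks in naive ESCs ran from 6429 to 14436 for SOX2, so these were not among the strongest peaks. At 4721 bp downstream, in a coding exon of Bmp4, TCF7L2 was found in 2 of 3 libraries of CEpiLCs and of SOX2-OFF, with folds up to 9.56.

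Smad7 (ENSMUSG00000025880.11, chr18:75367529-75395935) had 6 recurrent sites, and the most shared lay in an intron 6733 bp downstream of the start (chr18:75374012-75374512), in 36 libraries. β-catenin was found in all 12 libraries, at 16.7, 10.9 and 15.4 in naive ESCs, 10.95, 8.41 and 4.84 in CEpiLCs, 9.98, 11.1 and 11.4 in SOX2-ON and 18.02, 8.35 and 21.3 in SOX2-OFF. The states overlapped, and the ratio of high to low SOX2 was 1.16 (exact permutation p = 0.55, adjusted p = 0.699). TCF7L1 was at 30.7, 18.2 and 43.5 in naive ESCs and at 18.9, 17.7 and 18.9 in SOX2-OFF. LEF1, an activator of WNT targets that partners β-catenin, was found in 3 of 3 libraries of CEpiLCs (7.01, 13.4 and 15.5) and of SOX2-OFF (15.3, 5.24 and 10.9). It was also found in 3 of 6 high-SOX2 libraries, and in 5 of 6 by the full lists. SOX2 was found among the strongest peaks in 1 CEpiLC and 2 SOX2-OFF libraries and in none of naive ESCs or SOX2-ON. The window holds 2 TCF motifs and no SOX motif.

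At 6471 bp upstream of Smad7 (chr18:75360808-75361308, intergenic), TCF7L1 was at 14.0, 5.91 and 17.2 in naive ESCs and at 5.62 and 14.4 in SOX2-ON, with 1 SOX2-ON library without a peak, and no CEpiLC or SOX2-OFF library had a peak of TCF7L1. This was the only member site that met the rule for a high-SOX2 site, 5 of 6 against 0 of 6 libraries (exact permutation p = 0.02, adjusted p = 0.125). With all deposited peaks 6 pairs of a site and a target met that rule, and with lists of equal length 0 did. The TCF7L1 difference between CEpiLCs and naive ESCs here also fell to 0 libraries with lists of equal length. β-catenin was found in 6 of 6 high-SOX2 libraries, from 5.52 to 15.8, in no CEpiLC library, and in 2 of 3 SOX2-OFF libraries (9.24 and 6.48). SOX2 was at 10.5, 13.8 and 25.8 in SOX2-ON, at 9.23, 14.2 and 16.4 in naive ESCs, and at 4.24, 10.9 and 5.03 in SOX2-OFF. This window holds 2 SOX motifs and no TCF motif.

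Close to the Smad7 start other combinations were seen. At 496 bp upstream, in an exon of Gm20544, SOX2 was in 3 of 3 libraries of both naive ESCs (11.1, 10.3 and 7.70) and CEpiLCs (7.38, 6.40 and 12.8), and TCF7L1 in 3 of 3 naive ESC libraries (8.69, 5.76 and 9.99) and 0 of 3 CEpiLC libraries. That TCF7L1 difference was smaller with all deposited peaks. It was 0 libraries with the 10000 strongest peaks or with lists of equal length. At 3245 bp downstream, in an intron, TCF7L2 was found in 3 of 3 libraries of CEpiLCs (8.96, 15.9 and 15.8) and of SOX2-OFF (7.26, 8.09 and 7.16). It was also found in 3 of 6 high-SOX2 libraries, and in 4 of 6 by the full lists. SOX2 there was in 3 of 3 CEpiLC libraries (13.0, 7.45 and 9.25) and 0 of 3 naive ESC libraries by the list of 20000, although all 3 naive libraries had a peak in the full list, from 5.03 to 6.26. With all deposited peaks the call is therefore lost.

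Bambi (ENSMUSG00000024232.2, chr18:3507923-3516404) was the least occupied locus, with 8 sites and 2 recurrent ones. At 36041 bp downstream of its start (intergenic), β-catenin was in 2 of 3 libraries of CEpiLCs (4.66 and 6.66) and of SOX2-OFF (7.30 and 9.47) and in 1 of 3 of the other states. In the UTR 82 bp downstream of the start, TCF7L2 was in 2 of 3 libraries of CEpiLCs (9.24 and 13.1) and of SOX2-OFF (4.85 and 7.08). No Bambi site was called between states.

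Msx1 (ENSMUSG00000048450.10, chr5:37820485-37824583) was occupied from 130 to 8398 bp upstream of its start by a row of 6 recurrent sites, and the site 2348 bp upstream (chr5:37826681-37827181, intergenic) was found in 45 libraries. β-catenin folds there were 46.5, 24.1 and 29.3 in naive ESCs, 61.8, 66.6 and 57.5 in CEpiLCs (ranks 35, 103 and 127), 55.6, 22.1 and 33.98 in SOX2-ON and 56.5, 12.6 and 56.9 in SOX2-OFF. The CEpiLC libraries lay above all libraries of the other states, and the high to low ratio was 0.723 (exact permutation p = 0.31, adjusted p = 0.478). TCF7L2 folds were 39.2, 64.6 and 91.5 in CEpiLCs (ranks 95, 268 and 109), against 22.3, 24.2 and 15.2 in naive ESCs, 28.3, 15.7 and 31.7 in SOX2-ON and 25.9, 20.3 and 33.0 in SOX2-OFF. The high to low ratio for TCF7L2 was 0.553 (exact permutation p = 0.045, adjusted p = 0.57), which did not pass the threshold. Here too the CEpiLC libraries lay above the 9 others. TCF7L1 was found in all 12 full lists, from 5.22 to 26.1.

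At this Msx1 site SOX2 was at 9.34, 6.40 and 9.33 in CEpiLCs and at 8.59 and 9.01 in 2 of 3 SOX2-OFF libraries, and in high-SOX2 cells no library had it among its 20000 strongest peaks. This gave 5 of 6 low-SOX2 and 0 of 6 high-SOX2 libraries (exact permutation p = 0.02, adjusted p = 0.158), the larger of the 2 SOX2 differences of this kind at the 8 loci. In the full lists SOX2 had a peak at 4.97 and 5.08 in 2 naive ESC libraries and at 6.20 in 1 SOX2-ON library. With all deposited peaks the difference between CEpiLCs and naive ESCs fell from 3 libraries to 1. The window holds 1 TCF motif, 11 to 17 bases after the centre, 1 GC box 7 to 2 bases before it, and no SOX motif.

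Other Msx1 sites were called in CEpiLCs. At 1319 bp upstream (chr5:37825652-37826152, intergenic), β-catenin was at 35.1, 12.5 and 9.11 in CEpiLCs and at 10.3 and 5.30 in SOX2-OFF, and no high-SOX2 library had it among the strongest peaks, which met the low-SOX2 rule (exact permutation p = 0.02, adjusted p = 0.129). In the full lists 4 of 6 high-SOX2 and 5 of 6 low-SOX2 libraries had a β-catenin peak at this site. SOX2 (14.0, 7.73 and 8.82) and TCF7L2 (13.3, 9.41 and 6.92) were there in 3 of 3 CEpiLC and 0 of 3 naive ESC libraries. At 4330 bp upstream, β-catenin (12.4, 5.99 and 5.02) and LEF1 (6.74, 7.53 and 10.4) were in 3 of 3 CEpiLC and 0 of 3 naive ESC libraries, and β-catenin again met the low-SOX2 rule with 5 of 6 against 1 of 6 (exact permutation p = 0.095, adjusted p = 0.26). Its full lists gave 5 of 6 against 4 of 6. At 8398 bp upstream, SOX2 was in 3 of 3 CEpiLC libraries (12.3, 9.56 and 11.1) and in none of the other 9 by the list of 20000. Weaker SOX2 peaks lay there in the full lists of naive ESCs (8.22 and 2.91), SOX2-ON (5.04) and SOX2-OFF (5.84 and 4.92). At 7497 bp downstream the only target with recurrent peaks was TCF7L2, in 11 of 12 libraries, with folds of 13.8, 21.7 and 10.9 in CEpiLCs and 7.24 and 8 in naive ESCs.

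Msx2 (ENSMUSG00000021469.9, chr13:53466884-53473074) had a kept site and a pair of sites that changed with state. The kept site, 3027 bp upstream (chr13:53475851-53476351, intergenic), had β-catenin in all 12 libraries, at 17.6, 8.13 and 10.6 in naive ESCs, 26.2, 13.4 and 12.04 in CEpiLCs, 9.88, 6.59 and 10.5 in SOX2-ON and 21.4, 5.56 and 15.8 in SOX2-OFF. TCF7L2 was found in 11 of 12, from 6.42 to 22.3, while SOX2 and TCF7L1 had no peak there among the strongest of any library. The high to low ratio was 0.712 for β-catenin (exact permutation p = 0.23, adjusted p = 0.391) and 1.09 for TCF7L2 (exact permutation p = 0.725, adjusted p = 0.926), and the states overlapped. β-catenin and TCF7L2 also shared the Msx1 site 2348 bp upstream in every state. The window at Msx2 holds 2 GC boxes and neither a SOX nor a TCF motif.

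The pair lay past the end of Msx2, with centres 952 bp apart. At the outer site, 11540 bp downstream of the start (chr13:53461284-53461784, intergenic), 12 of 15 naive ESC libraries had a peak among their 20000 strongest. Among the SOX2-ON libraries 5 of 15 had one, among CEpiLCs 2 and among SOX2-OFF 0. At the inner site, 10588 bp downstream (chr13:53462236-53462736, intergenic), 15 of 15 CEpiLC libraries had one, as did 4 naive ESC libraries and 2 each in SOX2-OFF and SOX2-ON. In the full lists the inner site had a peak in 15 CEpiLC, 10 naive ESC, 8 SOX2-OFF and 7 SOX2-ON libraries, so weaker peaks lay there in every state. The outer site had one in 14 libraries of naive ESCs, 8 of SOX2-ON and 2 each of the other states. Both sites were occupied at once in 4 naive ESC, 2 CEpiLC and 1 SOX2-ON libraries. These 15 libraries per state are 5 targets of 3 replicates and are not 15 independent samples.

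At the outer Msx2 site the naive ESC folds were among the highest of the 8 loci. TCF7L1 was at 55.7, 78.7 and 171 (ranks 576, 129 and 148), β-catenin at 72.3, 32.6 and 74.3 (ranks 118, 293 and 115) and SOX2 at 24.7, 36.8 and 30.4. In CEpiLCs SOX2 was at 4.81 and 7.25, and neither β-catenin nor TCF7L1 had a peak in any full list. In SOX2-ON SOX2 was at 5.34, 7.58 and 9.31 and TCF7L1 at 29.2 in 1 of 3 libraries, while SOX2-OFF had no SOX2 peak. β-catenin and TCF7L1 were each found in 4 of 6 high-SOX2 and 0 of 6 low-SOX2 libraries (exact permutation p = 0.05 for both, adjusted p = 0.181 and 0.176). The window holds 2 SOX motifs.

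At the inner site all 5 targets had a peak among the 20000 strongest in 3 of 3 CEpiLC libraries, which held at no other member site. In the full lists it also held at the Msx1 site 2348 bp upstream. The share of such sites genome-wide is not given here, and 6 of the 10 lists under 20000 peaks were of CEpiLCs. In CEpiLCs β-catenin at the inner site was at 28.9, 21.5 and 16.2, LEF1 at 11.02, 14.1 and 12.7, TCF7L2 at 9.44, 8.58 and 18.8, TCF7L1 at 5.97, 8.92 and 12.7 and SOX2 at 7.08, 6.30 and 6.35. For SOX2 the site was called only in CEpiLCs, against 0 of 3 naive ESC libraries, but in the full lists 2 naive ESC libraries had a peak (5.74 and 4.37). With all peaks, and with the 10000 strongest, the difference fell from 3 libraries to 1. The other targets each had 1 naive ESC library with a list peak (β-catenin at 15.6, LEF1 at 7.78, TCF7L1 at 4.88 and TCF7L2 at 9.27) and so were not called. The window holds none of the motifs searched. Within the Msx2 gene, in an intron 2116 bp downstream of the start, SOX2 was in 3 of 3 SOX2-ON libraries (11.5, 9.99 and 9.64), 1 of 3 of SOX2-OFF and 1 of 3 of naive ESCs. In the full lists 6 of 6 high-SOX2 libraries, thus also all of naive ESCs, and 2 of 6 low-SOX2 libraries had a SOX2 peak there.

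**Figure D4:**
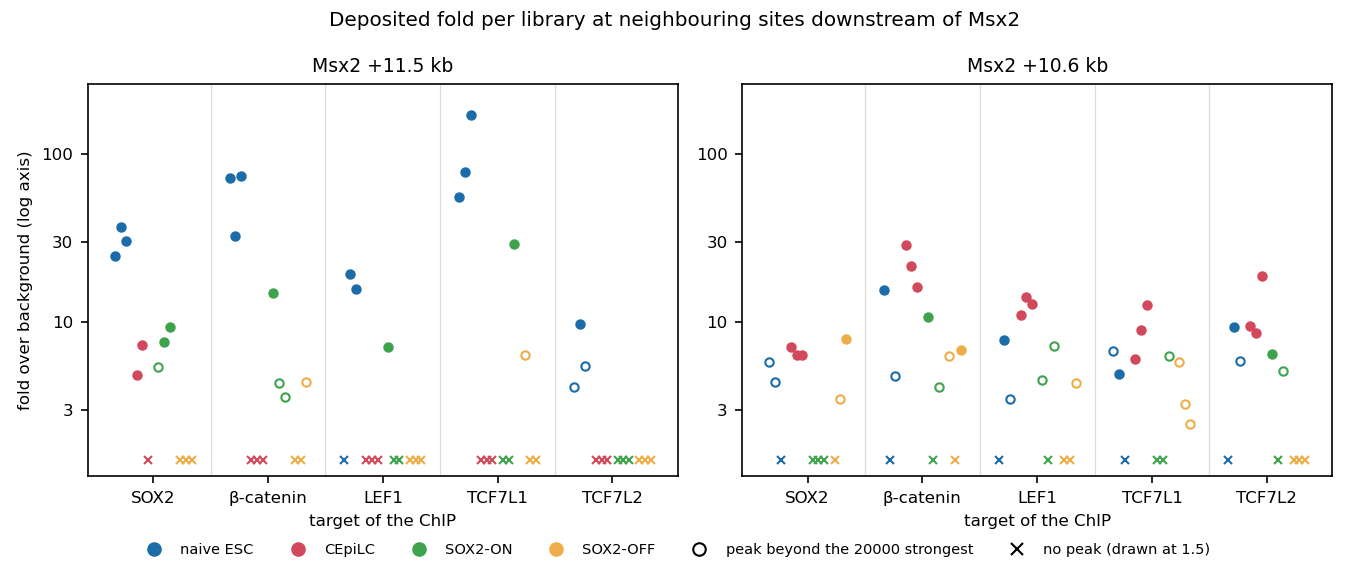
Deposited fold over local background (vertical, log axis) per library and target (horizontal) at the outer (left, 11540 bp downstream) and inner (right, 10588 bp downstream) Msx2 sites, coloured by cell state; open points are peaks beyond the 20000 strongest and crosses are libraries with no peak. Naive ESC libraries reach 171 at the outer site, and 15 of 15 CEpiLC libraries have a peak at the inner one.

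None of the remaining recurrent sites was called. In the UTR of H13, 28560 bp upstream of Id1, β-catenin was in 3 of 3 CEpiLC libraries (3.95, 4.04 and 4.80) and 1 of 3 of each other state. Downstream of Id2, 4310 bp from the start, SOX2 was at 4.67, 4.55 and 7.09 in CEpiLCs, and it had no naive ESC peak in any full list. In an intron of Smad7, 13542 bp downstream, β-catenin was at 10.6 and 8.19 in 2 of 3 naive ESC libraries and in none of CEpiLCs or SOX2-ON. At 22391 bp upstream of Smad7, SOX2 was in 4 of 6 high-SOX2 and 0 of 6 low-SOX2 libraries (exact permutation p = 0.08, adjusted p = 0.28). In the coding exon of Msx2 512 bp downstream, SOX2, β-catenin and TCF7L2 were each in 2 of 3 CEpiLC libraries, and LEF1 in 2 of 3 of SOX2-ON. β-catenin alone was recurrent, in 2 of 3 CEpiLC libraries, at the Msx1 sites 130 and 5612 bp upstream, the Bmp4 site 7959 bp upstream and the Msx2 site 28866 bp upstream, and LEF1 alone at the Msx2 site 8771 bp downstream. SOX2 was in 2 of 3 libraries of CEpiLCs and of naive ESCs at the Id3 site 16431 bp downstream, and in 2 of 3 of CEpiLCs and of SOX2-ON at the Id3 site 2803 bp upstream. At the Id3 site 20237 bp downstream SOX2 was at 14.2 and 7.10 in 2 of 3 naive ESC libraries and at 9.51 in 1 SOX2-ON library, with no CEpiLC or SOX2-OFF peak among the 20000 strongest.

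Over all members and targets, 11 pairs of a site and a target were called only in CEpiLCs against naive ESCs, of 62 that could be called (17.7%), against 16.5% of all sites genome-wide. By target these were 6 of 17 for SOX2 (background 17.8%), 3 of 21 for β-catenin (21.2%), 1 of 6 for LEF1 (42.9%), 1 of 9 for TCF7L2 (15%) and 0 of 9 for TCF7L1 (0.868%). Among these 4 targets with calls, the share at the members lay above the background for SOX2 (35.3%) and below it for the others. In the other direction 8 pairs were called only in naive ESCs (12.9%), against 32.7% genome-wide: 5 of 9 for TCF7L1 (71.8%), 2 of 21 for β-catenin (30.6%) and 1 of 17 for SOX2 (17.5%). For each of these 3 targets the share at the members was below the background. Calls of 3 against 3 libraries carry no test, because the smallest p of such a permutation is 0.1. In lists without the 5 under 5000 peaks and without naive ESC LEF1 replicate 1, an alternative chosen after seeing the data, the counts were 11 and 9. The balance of both directions depended on the list: with all deposited peaks 5 pairs were called only in CEpiLCs and 14 only in naive ESCs, and with lists of equal length 13 and 3.

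Between SOX2-ON and SOX2-OFF, 2 of 27 pairs were called only in SOX2-ON (background 22.7%), both of them the SOX2 peaks of the distal Id2 sites, which made 2 of 8 pairs of SOX2 (39.4%). None was called only in SOX2-OFF (background 4.55%). By level of SOX2, 1 of 58 pairs met the high rule (background 11.3%), namely TCF7L1 at Smad7, 1 of 7 for that target (20.8%). The low rule was met by 4 of 58 pairs (background 6.35%), of which 2 of 19 were SOX2 (6.15%), at Id1 and Msx1, and 2 of 17 β-catenin (9.12%), both at Msx1. When the rule asked for all remaining high and no remaining low libraries, or the reverse, and the short lists were left out as above, 0 pairs were high and 1 was low. In the exact permutation test of occupancy, no member pair had an adjusted p under 0.05 (0 of 58, background 0%). An unadjusted p below it was found for 3 of 58, against 5870 of 43754 genome-wide. In the exact test of the fold, 0 of 8 member pairs passed (background 5.19%, all of them SOX2 sites). Only 1 of the 8 was a SOX2 pair, a target for which 229 of 1800 sites passed, and no site of another target passed genome-wide. An unadjusted p below 0.05 was found for 2 of 8, β-catenin at Id3 and TCF7L2 at Msx1, against 1106 of 4409 genome-wide.

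**Figure D5:**
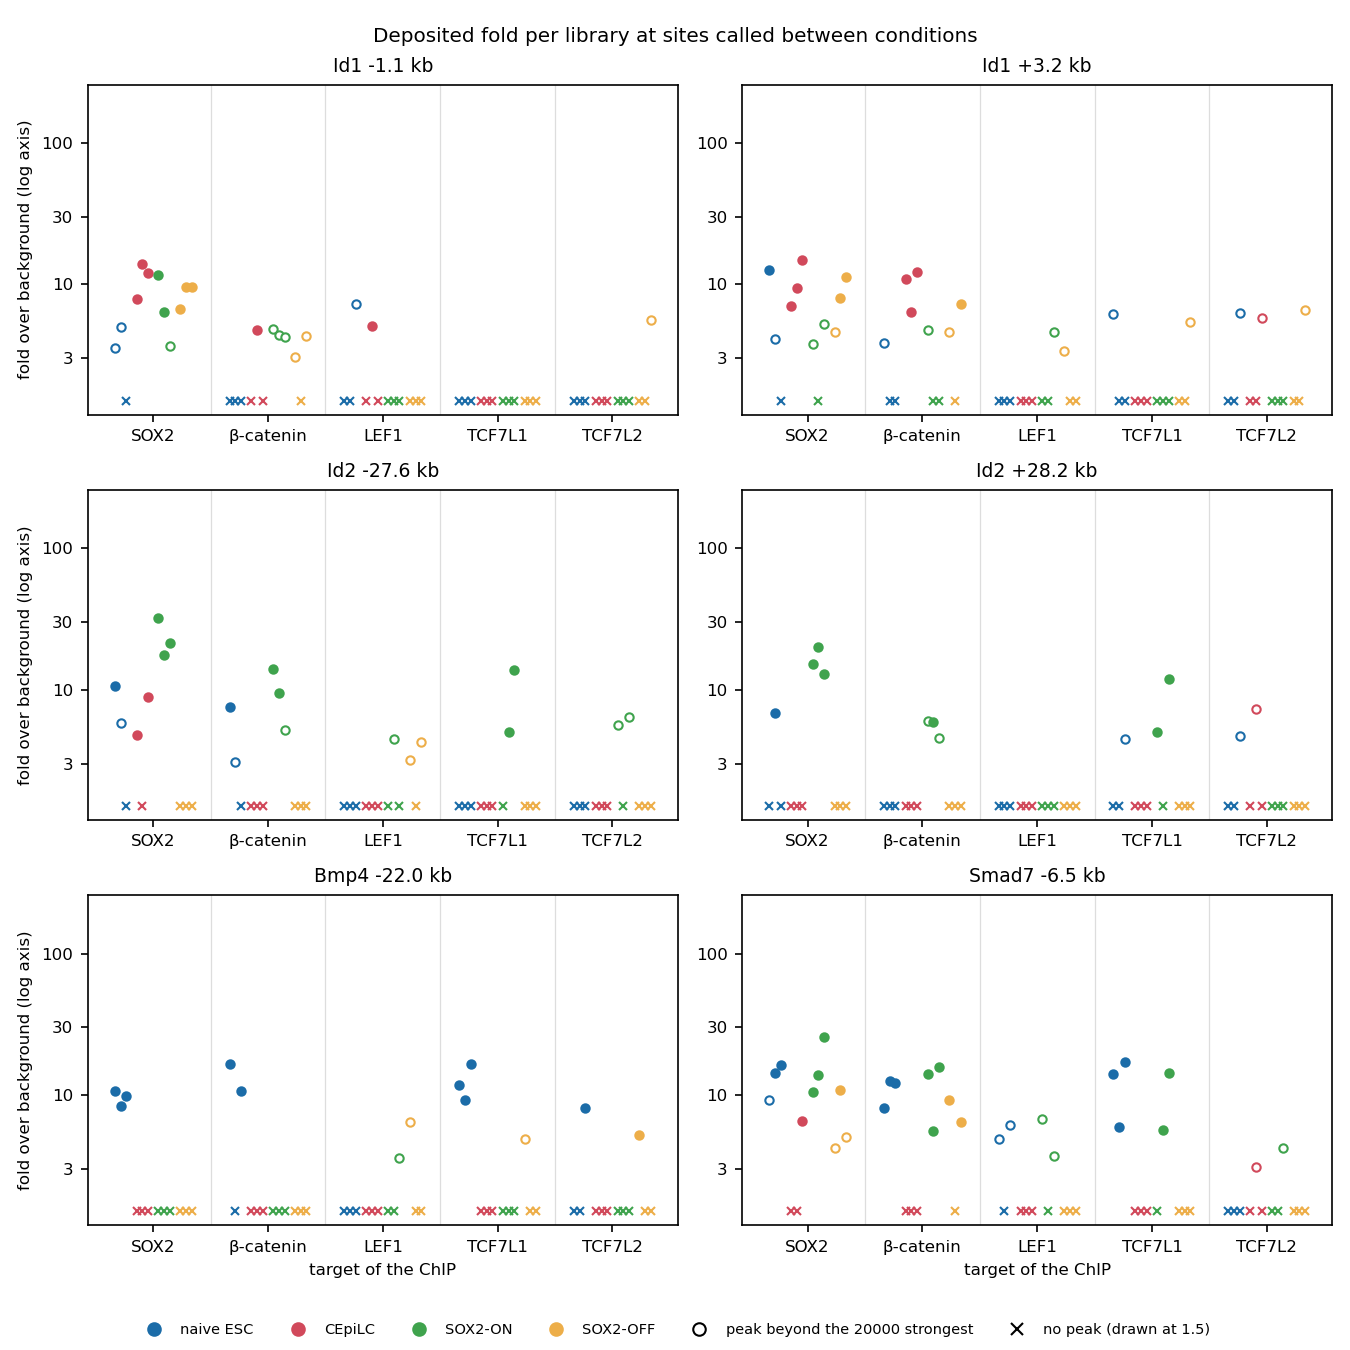
Deposited fold over local background (vertical, log axis) per library and target (horizontal) at 6 sites called between states, coloured by cell state; open points are peaks beyond the 20000 strongest and crosses are libraries with no peak. SOX2 folds of 17.7 to 32.1 mark SOX2-ON at the Id2 site 27630 bp upstream, and for SOX2 and TCF7L1 only naive ESC libraries have peaks among the 20000 strongest at the Bmp4 site 22011 bp upstream.

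The recurrent member sites were compared with recurrent sites at large in how many targets shared them. All 5 targets were recurrent, in some state, at 5 of 39 member sites (12.8%) and at 3.94% of the 49073 recurrent sites genome-wide, and a single target at 13 of 39 (33.3%) and 52.6%. In CEpiLCs SOX2 was recurrent at 18 member sites, and 13 of these also held β-catenin, against 36.8% of its recurrent sites genome-wide. In naive ESCs 5 of 8 did (55.3% genome-wide), in SOX2-ON 5 of 11 (36.0%) and in SOX2-OFF 3 of 6 (39.0%). β-catenin itself was recurrent at 22 member sites in CEpiLCs, 10 in naive ESCs and 9 in each of the SOX2-TetON states. By the full lists these counts were 22 in CEpiLCs, 21 in naive ESCs, 22 in SOX2-ON and 15 in SOX2-OFF. LEF1 was recurrent at 9 member sites in CEpiLCs and at 1 to 3 in the other states. By the full lists its counts were 9, 9, 14 and 5 in the same order of states. For both targets the higher count in CEpiLCs was thus not seen in the full lists. Their CEpiLC lists held 4443 to 20453 peaks, so the cut removed few or none of the weak peaks. Genome-wide counts per state are not given for either target, so these counts cannot be read as a trait of the member sites. These are counts over sites of 8 genes and carry no test.

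The sequence around the centres was compared in the same way. The median GC content of the 201 bases was 55.2% at the 39 member sites and 48.3% at all recurrent sites. A GC box, GGCGCC on either strand, was present in 9 of 39 member windows (23.1%) and in 4.19% of all recurrent windows, and among windows above 60% GC in 7 of 16 and 21.6%. The GC box followed after 5 bases by GTCT occurred in 2 member windows, those of Id1 3240 bp downstream and of Id2 1786 bp upstream, and in 0.0265% of all recurrent windows. These 2 windows hold 72.1% and 75.6% GC, and among all recurrent windows above 60% GC the share was 0.151%. A SOX motif was present in 10 of 39 member windows (25.6%), against 45.5% of all recurrent windows, and a TCF motif in 7 of 39 (17.9%), against 26.9%. GC boxes and SOX motifs shared no member window except that of the distal Id3 site 20237 bp downstream. A match of these letters is a description of the sequence, and no binding of a SMAD was measured.

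The 32 other genes of the pathway were counted by the same rules. A locus kept in all 4 states was found for 13 of 32 genes with SOX2 (background 29.8%), 7 with β-catenin (20.8%), 5 with LEF1 (17.1%), 11 with TCF7L1 (20.6%) and 13 with TCF7L2 (27.5%). Of 99 pairs that could be called between CEpiLCs and naive ESCs, 30 (30.3%) were only in CEpiLCs, at 14 genes, against 16.5% genome-wide. In the other direction 25 (25.3%) were only in naive ESCs, at 11 genes, against 32.7%. The 6 ligands had 7 CEpiLC pairs and 0 naive ESC pairs of 11, and Bmp7 alone held 5 of 8. The 6 receptors had 3 and 13 of 28, and the type I receptor Acvr1 held 8 naive ESC pairs of its 12. The 5 other targets of the pathway had 10 and 5 of 25, with 4 CEpiLC pairs of 6 at Dlx5 and 4 of 5 at Hand1. The 11 inhibitors had 10 and 5 of 30, and Smad6, the relative of Smad7, held 3 and 1 of 12. The 4 SMAD transducers had 0 and 2 of 5, both at Smad4. Between SOX2-ON and SOX2-OFF, 10 of 44 pairs (22.7%) were only in SOX2-ON, against 22.7% genome-wide, and a single pair (1 of 44) was called in the other direction, against 4.55%. These shares are over few pairs, several of them at 1 gene, and carry no test. The genome-wide share only in CEpiLCs ranged from 0.868% for TCF7L1 to 42.9% for LEF1. The mix of targets among these pairs is not given, so the pooled shares cannot be told apart from that mix.

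As a description, the genes on other chromosomes whose highest fold in the locus varied most like that of each member over the 60 libraries were found by Pearson correlation. For Id3 these were Gpt2 (r = 0.849) and Slc18b1 (r = 0.837), for Msx2 Sufu (r = 0.833) and Igf2bp1 (r = 0.759), for Msx1 Avil (r = 0.815) and Ctdsp2 (r = 0.796), and for Smad7 Hacd2 (r = 0.791) and Dlgap1 (r = 0.776). For Id1 they were Nlrp9b (r = 0.681) and Rabggtb (r = 0.655), for Id2 2810006K23Rik (r = 0.661) and Fezf1 (r = 0.605), for Bmp4 Sod2 (r = 0.597) and B3gnt3 (r = 0.589), and for Bambi Vmn1r194 (r = 0.474) and Nkx6-1 (r = 0.462). The 60 libraries share targets, states and list lengths, so these values have no p.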

How the data were processed

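ChIP-seq had been carried out on 60 immunoprecipitated libraries and 4 inputs, and the deposited peak lists of the 60 libraries were used. Cells had been fixed with a protein cross-linker and then formaldehyde, and the libraries were sequenced as 76-bp single-end reads. The authors ran nf-core/chipseq 1.1.0 (Trim Galore, BWA to mm10) and called narrow peaks with MACS, per the labels MACS2, at q below 0.05 for each library, without pooling replicates. The pairing of libraries with inputs is not given in the sources used here. The deposited fold of a peak is the ratio of pileup to local background at its summit, and the deposited −log10 p-value belongs to the same summit. Both were used as the authors gave them.

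Here each list was ranked by fold, with ties ordered by −log10 p-value, and cut at 20000. Sites of 250 bp either side of a centre were built over the whole genome from these summits, taken in order of rank and dropping any within 500 bp of a centre already taken. A library occupied a site when a summit of its list lay within 250 bp. For 3 against 3 libraries a site was called when occupied in 3 of 3 and 0 of 3, among sites occupied in at least 3 of the 6. For SOX2 level the rule was at least 5 of 6 and at most 1 of 6, with an exact two-sided permutation test of occupancy within cell lines (400 assignments, smallest p 0.005), adjusted by Benjamini-Hochberg over all sites of the target found in at least 4 of 12 libraries. The same test was made on the mean log2 fold where all 12 full lists had a peak. The peak files allowed no test of read counts, and depth is unknown. The tests were checked on simulated data. Gene bodies came from GENCODE M21, sequences from RefSeq GRCm38, and python 3.11.15, numpy 2.4.6, pandas 2.3.3 and matplotlib 3.10.9 were used.

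All 8 members and their recurrent sites (at least 2 of 3 libraries of a target and state) are described, with values per library for the site of most libraries and for called sites. Folds of some further recurrent sites, chosen after their values were seen, are also given. Motifs were searched within 100 bp of the centres on both strands. The members, the gene lists and the motifs were chosen with earlier results of these data known. Alternatives were all deposited peaks, 10000 peaks, ranking by −log10 p-value, equal lists, other overlap rules, 10 kb windows, folds divided by the library median, a replicate block and leaving out each replicate.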

Additional observations from a re-analysis of the deposited data

How the results depend on the processing

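Of the counts of pairs of a site and a target at the 8 loci, those only in CEpiLCs (11), only in naive ESCs (8), only in SOX2-ON (2), only in SOX2-OFF (0), of high SOX2 (1) and of low SOX2 (4) moved with list length and with the number of replicates. With all deposited peaks they were 5, 14, 7, 2, 6 and 1. The 10000 strongest peaks gave 3 only in naive ESCs. Lists of equal length gave 3 only in naive ESCs, 2 only in SOX2-OFF and 0 of high SOX2. Ranking by −log10 p-value gave 1 only in SOX2-OFF. Summits within 500 bp and overlapping intervals both gave 1 only in SOX2-ON, and windows of 10 kb gave 0, because both Id2 sites lie farther out. Leaving out 1 replicate, with all remaining libraries against none, gave 18 to 23 only in CEpiLCs, 10 to 13 only in naive ESCs, 6 to 8 only in SOX2-ON, 0 to 5 only in SOX2-OFF, 0 to 1 of high SOX2 and 0 to 3 of low SOX2; fewer libraries make the first 4 rules easier and the last 2 require every library. An alternative chosen after seeing the data left out the 5 lists under 5000 peaks and naive ESC LEF1 replicate 1, and gave 9 only in naive ESCs, 2 only in SOX2-OFF, 0 of high SOX2 and 1 of low SOX2, again with all remaining libraries against none. The number of member pairs with a fold difference between high and low SOX2 was 0 under each alternative run, but with 2 replicates the smallest p is above 0.05, so leaving out a replicate says nothing here.

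Whether the replicate numbers pair the libraries differed by target and was not settled. Deviations from the group means of same-numbered libraries had median correlations from 0.00792 (TCF7L2) to 0.251 (LEF1). For libraries of other numbers these medians were -0.0185 and -0.19. Of 18 same-numbered pairs per target, 13 were over 0.1 for LEF1 and 12 for TCF7L1. For β-catenin 6 were, for TCF7L2 5 and for SOX2 4. With the replicate number as a block, the smallest p that 64 assignments allow is 0.03125, and 0 member pairs reached it in either direction; for the fold test the block gave 0 adjusted and 1 unadjusted p under 0.05.

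Of the 21 pairs called between 2 states, the difference in number of libraries was the same for 20 when ranked by −log10 p-value, for 11 with all deposited peaks and for 13 with the 10000 strongest or with lists of equal length, and none changed direction. List length and the small number of libraries both limit these counts: short lists let in weak peaks that long lists leave out, and 1 library decides a call of 3 against 0.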
